A study of Parasteatoda tepidariorum with 75 samples.

Results

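The 2 gene models described here, aug3.g12690 and aug3.g14027, carry the description glutamyl aminopeptidase-like in the annotation deposited with these counts. They are 2 of the 27990 AUGUSTUS (aug3) gene models counted in embryos of the house spider Parasteatoda tepidariorum, and 2 of 5 models with glutamyl aminopeptidase in their description. They were chosen by their measured values: both had fewer counts after Pt-hh parental RNAi (pRNAi) and more after Pt-ptc pRNAi at late stage 5. Their values in those 2 contrasts are therefore given as a description, with no test, and all tests come from the other stages, knockdowns and control injections. Each library held poly(A) RNA pooled from whole embryos of 1 egg sac of 1 mother (isolate Osaka). Mothers were injected with dsRNA against 1 of the spider genes Pt-hh, Pt-ptc and Pt-msx1, or with gfp dsRNA. The pRNAi libraries came from egg sacs laid 13 to 24 days after the first injection, and the untreated library of the same female came from an egg sac laid on day -3 to day -1. In the first experiment, 2 Pt-hh females, 3 Pt-ptc females and gfp females 1 to 3 each gave embryos of early stage 3 and of late stage 5. In the second, 3 Pt-msx1 females and gfp females 4 and 5 gave embryos of late stage 5 and of early stage 6. The gfp females carry the injection and the later egg sac but no spider target, and in every female the untreated egg sac was also the earlier one.

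Glutamyl aminopeptidase, also called aminopeptidase A, is a zinc-dependent ectoenzyme of the M1 peptidase family that removes acidic residues from the amino end of peptides. In mammals it is known from the processing of angiotensin peptides. In the Hedgehog pathway the receptor Patched holds the membrane protein Smoothened inactive until the ligand Hedgehog binds, so loss of the ligand lowers signalling and loss of Patched raises it. In the spider germ disc, Pt-hh is transcribed at the rim, the future anterior side, and the signal patterns the disc from there.

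Of 75 samples, 68 had a column in the count table, 26 untreated and 42 pRNAi libraries of 13 females, with 5961730 to 16400327 counts on gene models (median 9854679). The other 7, late stage 7 embryos of gfp females, were not analysed here. The 10 models with the most counts made up 10.94 to 23.99% of each of the 12 Pt-hh libraries, injected and untreated, and 2.9 to 7.28% of the others. One pair of libraries held the same counts in all 27990 gene models: the pRNAi library of gfp female 5 at early stage 6 (day 20) and the library labelled Pt-msx1 pRNAi of Pt-msx1 female 1 at early stage 6 (day 18). Their RPKM values differed by 1 constant ratio, 0.932, in models above 1 RPKM. Which label is right was not tested, so fitted changes, calls, the order of levels and marker values at early stage 6 are also given without these libraries. Levels below are in CPM, counts on a gene model scaled by the library's total.

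The knocked-down genes were read first. Pt-hh (aug3.g4322), which encodes the ligand, had 2.17, 2.75, 3.06 and 3.0 CPM in Pt-hh pRNAi embryos at late stage 5, against 60.3 and 33.7 CPM in the untreated embryos of the same females. Pt-ptc (aug3.g14374), which encodes the receptor, had 48.5 to 88.7 CPM in the 6 Pt-ptc pRNAi libraries at early stage 3 and 82.2 to 177 CPM in the 3 untreated ones, but 467 to 613 CPM at late stage 5, against 411 to 544 CPM. Its log2 fold change at early stage 3, -0.91 ± 0.16, did not pass edgeR's test (adjusted p = 0.0228). At late stage 5 it was 0.215 ± 0.093 (adjusted p = 0.301 in the same test). The paper listed Pt-ptc as changed at early stage 3 and not at late stage 5. It proposes that the knockdown raises signalling and thereby Pt-ptc transcription, which was not tested here. Pt-msx1 (aug3.g15189), which encodes a homeodomain protein, had 74.9, 110 and 95.5 CPM in the libraries labelled Pt-msx1 pRNAi at late stage 5, against 79.1, 134 and 79.4 CPM in the untreated ones, and its log2 fold change there was 0.01 ± 0.16 (SE). At early stage 6 it had 200.1, 125 and 95.6 CPM, against 143, 158.0 and 124 CPM, a log2 fold change of -0.07 ± 0.19. Females 1 and 2 at late stage 5 and females 2 and 3 at early stage 6 were thus below their untreated libraries, and the 200.1 CPM belong to the copied library. The other gfp pRNAi library at early stage 6 had 181 CPM, and the untreated ones of the gfp females had 175 and 188 CPM. Without that female the change at early stage 6 was -0.35 ± 0.11 (adjusted p = 0.292 in edgeR's test). No fall of Pt-msx1 RNA passed the test, so these libraries are named by their label. With all females the test called 0% of all models at both stages, so a fall that did not pass says little about the knockdown. The paper reported the same embryo defects with dsRNAs against nonoverlapping parts of Pt-msx1.

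The model aug3.g12690 (LOC107437938) lies on scaffold 1528 (plus strand, 114666 to 143005, assembly Ptep_1.0), a span of 28340 bases. The model aug3.g14027 (LOC107439765) lies on scaffold 1782 (plus strand, 1086 to 153001), a span of 151916 bases. Exons, introns and UTRs within these spans are not given in the tables used here. The deposited best matches were the fly protein CG8773 for aug3.g12690, the fly gene CG8775 for aug3.g14027, and for both human ENPEP, the gene of glutamyl aminopeptidase. No other model overlaps either of them. The only model beside aug3.g12690 is aug3.g12689, which ends before it at 99230 and has no description (mean 0.009 CPM), and none follows. The only one beside aug3.g14027 is aug3.g14028, a GQ-coupled rhodopsin model on the minus strand from 166654 to 176974 (mean 1.01 CPM), and none precedes. The length behind the RPKM values was 6.42 times greater for aug3.g14027. Per length, the models were at similar levels: the RPKM of aug3.g14027 over that of aug3.g12690 had a median of 0.94 over the 68 libraries (range 0.378 to 2.65) and was above 1 in 31 of them. Reads had to place uniquely to be counted, so stretches that the 2 relatives share would be missing from both.

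At late stage 5, both models were lower in Pt-hh pRNAi embryos, in every library. The model aug3.g14027 had 1.49 and 1.45 CPM in the Pt-hh pRNAi embryos of female 1 and 1.53 and 1.78 CPM in those of female 2, against 15.03 CPM and 8.37 CPM in the untreated embryos of these females. The pRNAi libraries lay below all 13 untreated late stage 5 libraries of the series, the lowest of which had 3.81 CPM. The fitted log2 fold change was -2.81 ± 0.28 (SE). The model aug3.g12690 had 1 and 1 counts (0.136 and 0.162 CPM) after Pt-hh pRNAi in female 1 and 2 and 3 counts (0.255 and 0.334 CPM) in female 2, against 19 counts (2.67 CPM) and 11 counts (1.46 CPM) untreated. The libraries of female 1 lie below the lowest untreated late stage 5 library of the series (0.224 CPM, gfp female 3) and those of female 2 above it. Over both females aug3.g12690 had 7 counts in the 4 pRNAi libraries, against 30 in the 2 untreated ones. Untreated over pRNAi, its level was 17.96 times greater in female 1 and 4.97 times in female 2, and that of aug3.g14027 was 10.2 and 5.06 times greater, and the difference between the females was not tested. Without female 1 the fitted log2 fold changes were -2.14 for aug3.g12690 and -2.21 for aug3.g14027, and without female 2 they were -4.08 and -3.39. Over all models tested, 3.55% of 12240 were called in this comparison (adjusted p under 0.01). In whole embryos, fewer cells that express a gene and less RNA per cell cannot be told apart.

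At late stage 5, Pt-ptc pRNAi embryos had more of both transcripts than the untreated embryos of the same female, in 6 of 6 libraries. The model aug3.g14027 ran from 27.4 to 126 CPM (median 48.9) in the 6 Pt-ptc pRNAi libraries, against 27.2, 13.4 and 34.3 CPM in the untreated libraries of females 1, 2 and 3. The model aug3.g12690 ran from 3.75 to 20.8 CPM (median 6.32), against 2.0, 2.0 and 3.79 CPM. Across females the groups overlap: the lowest pRNAi libraries, in female 2 for both models, lie below the untreated library of female 3. Within females they do not. The ratio of a female's mean pRNAi level over its untreated level was 2.46 to 4.09 for aug3.g12690 and 1.8 to 3.01 for aug3.g14027. The fitted log2 fold changes were 1.71 ± 0.31 and 1.38 ± 0.20 (SE). Female 3 had the highest levels with and without injection, 81.0 and 126 CPM of aug3.g14027 in its 2 pRNAi libraries. For aug3.g12690 the egg sac laid on day 18 or 19 was higher than that of day 14 in each of the 3 females, and for aug3.g14027 in females 2 and 3. In this comparison 1.01% of 12195 models were called.

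**Figure D1:**
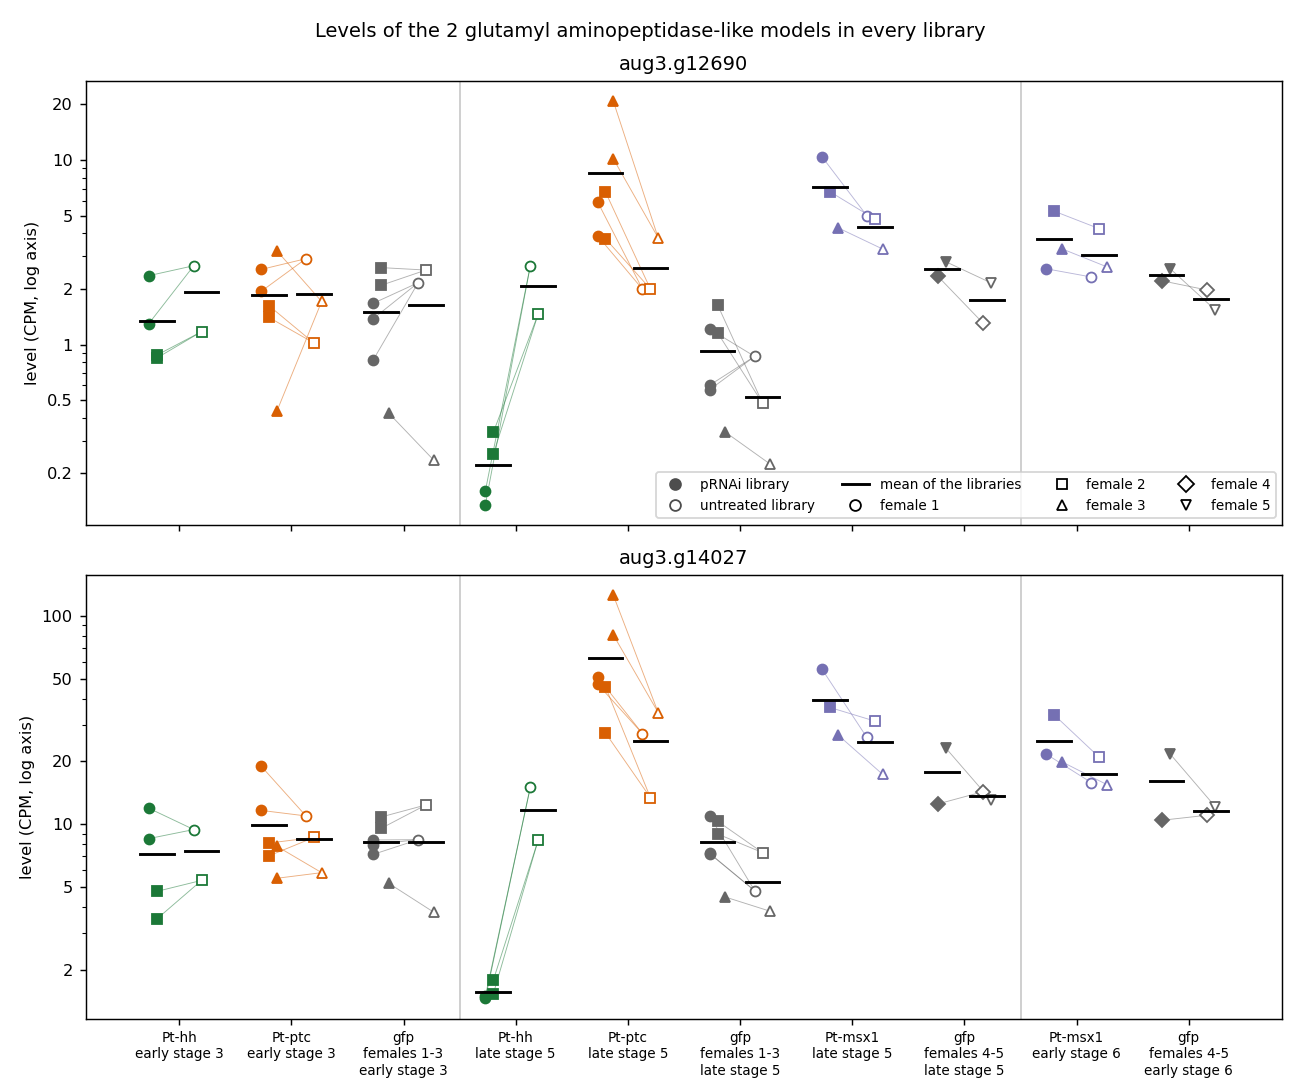
Level of each model in every library, in CPM on a log axis, for pRNAi (filled) and untreated (open) embryos by experiment and stage. Symbols mark the female, thin lines join each pRNAi library to the untreated library of its female and thick bars are means. For aug3.g14027 the 4 Pt-hh pRNAi libraries at late stage 5 lie below all others, while for aug3.g12690 they lie among the lowest, beside the untreated libraries of gfp female 3 (0.224 and 0.236 CPM). The highest library of both is a Pt-ptc pRNAi library of female 3 at late stage 5.

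The control injection at late stage 5 was not among the contrasts named in the choice. The study's list of Pt-hh changes at this stage holds both models, and it left out genes that passed its threshold after gfp pRNAi. A test that fails here was thus partly fixed in advance. The model aug3.g14027 had 7.23, 10.9 and 7.21 CPM after gfp pRNAi in female 1, 8.96 and 10.3 CPM in female 2 and 4.46 CPM in female 3, against 4.79, 7.3 and 3.81 CPM untreated. All 6 gfp pRNAi libraries were above the untreated library of their female, and the mean of a female's gfp pRNAi libraries was 1.17 to 1.76 times its untreated level. The log2 fold change of 0.57 ± 0.20 (SE) did not pass edgeR's quasi-likelihood test (adjusted p = 0.251), in a comparison that called 0.137% of 12433 models. The model aug3.g12690 was above the untreated library in 4 of 6 gfp pRNAi libraries, with 3 to 15 counts in each, and its log2 fold change was 0.68 ± 0.47 (adjusted p = 0.62 in the same test). Without gfp female 2 it was 0.04 and without gfp female 1 it was 1.33. The Pt-ptc changes of 1.38 and 1.71 stand beside these control values of 0.57 and 0.68. Their difference was not tested because the Pt-ptc contrast chose the models.

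At early stage 3 neither model passed the test in any pRNAi comparison. After Pt-hh pRNAi, aug3.g14027 had 8.52 and 11.9 CPM in female 1 and 3.5 and 4.75 CPM in female 2, against 9.41 and 5.37 CPM untreated. The model aug3.g12690 had 1.3 and 2.36 CPM in female 1 and 0.875 and 0.844 CPM in female 2, against 2.67 and 1.17 CPM. All 4 libraries of aug3.g12690 and 3 of 4 of aug3.g14027 were thus below the untreated one of their female. The log2 fold changes were -0.62 ± 0.45 (adjusted p = 0.542) for aug3.g12690 and -0.21 ± 0.27 (adjusted p = 0.766) for aug3.g14027 in edgeR's test, where 0.34% of 13221 models were called and Pt-hh itself was lower by a log2 fold change of -2.04 ± 0.29 (adjusted p = 0.00261). After Pt-ptc pRNAi, aug3.g14027 ran from 5.49 to 18.99 CPM (median 7.97) in 6 libraries, against 10.9, 8.62 and 5.85 CPM untreated, and aug3.g12690 from 0.434 to 3.22 CPM (median 1.78), against 2.92, 1.02 and 1.71 CPM. For each model 3 libraries were above and 3 below the untreated one. Their log2 fold changes were 0.13 ± 0.21 (adjusted p = 0.802) and 0.03 ± 0.42 (adjusted p = 0.984), with 0.134% of 13384 models called. Pt-ptc itself, with a log2 fold change of -0.91 ± 0.16, did not pass edgeR's test there either (adjusted p = 0.0228).

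The gfp females at early stage 3 gave values of the same size. In gfp females 1 to 3, aug3.g14027 ran from 5.19 to 10.8 CPM (median 8.18) in the 6 gfp pRNAi libraries, against 8.42, 12.4 and 3.77 CPM untreated. There the log2 fold changes were -0.15 ± 0.20 for aug3.g14027 (adjusted p = 0.702) and -0.40 ± 0.37 for aug3.g12690 (adjusted p = 0.55), with 1.26% of 14155 models called. The Pt-hh response minus the gfp response was -0.05 ± 0.32 on the log2 scale for aug3.g14027 and -0.22 ± 0.56 for aug3.g12690 (adjusted p = 0.986 and 0.954), where 0.0276% of 14480 models were called. The Pt-ptc response minus the gfp response was 0.29 ± 0.29 for aug3.g14027 and 0.44 ± 0.58 for aug3.g12690 (adjusted p = 0.772 and 0.849). In that comparison edgeR's quasi-likelihood test called 0% of 14600 models, with 1619 at an unadjusted p under 0.05, 36 called by its likelihood ratio test and 25 by DESeq2. The standard errors leave room for changes at early stage 3, above all in aug3.g12690, which had 2 to 28 counts a library there.

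In the second experiment, both models were higher in the libraries labelled Pt-msx1 pRNAi in every female at both stages, but no change passed the test. At late stage 5, aug3.g14027 had 55.5, 36.3 and 26.9 CPM in the libraries labelled Pt-msx1 pRNAi, against 26.1, 31.2 and 17.3 CPM in the untreated libraries of the same females. The model aug3.g12690 had 10.4, 6.74 and 4.3 CPM, against 4.99, 4.79 and 3.29 CPM. The groups of aug3.g14027 overlap and each pair points the same way, with ratios of 1.16 to 2.13. The log2 fold changes were 0.69 ± 0.17 (adjusted p = 0.512) for aug3.g14027 and 0.71 ± 0.24 (adjusted p = 0.705) for aug3.g12690 in edgeR's test. That test called 0% of 12440 models, with 696 at an unadjusted p under 0.05. The likelihood ratio test called 34 and DESeq2 14. Without Pt-msx1 female 2 the quasi-likelihood test called 21 models and without female 3 it called 43, neither peptidase model among them.

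The gfp females of the same experiment pointed the same way in part. At late stage 5, aug3.g14027 had 12.5 CPM after gfp pRNAi in female 4 and 23.1 CPM in female 5, against 14.3 and 13.1 CPM untreated. The model aug3.g12690 had 2.34 and 2.81 CPM, against 1.31 and 2.16 CPM. So female 5 was higher after injection for both models, and female 4 for aug3.g12690 alone. In these 2 females the log2 fold changes were 0.45 ± 0.27 and 0.71 ± 0.47 (adjusted p = 0.683 and 0.721), with 0.231% of 12111 models called. The response labelled Pt-msx1 minus the gfp response was 0.23 ± 0.33 on the log2 scale for aug3.g14027 and -0.0007 for aug3.g12690 (adjusted p = 1 for both). With 1 female left out at a time it ran from -0.21 (without gfp female 4) to 0.69 for aug3.g14027 and from -0.31 to 0.26 for aug3.g12690. Here edgeR's quasi-likelihood test called 0% of 12724 models, with 520 at an unadjusted p under 0.05, 6 called by its likelihood ratio test and 1 by DESeq2.

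At early stage 6, which follows, aug3.g14027 had 21.7, 33.4 and 19.9 CPM in the libraries labelled Pt-msx1 pRNAi, against 15.8, 20.97 and 15.5 CPM untreated, and aug3.g12690 had 2.57, 5.28 and 3.3 CPM, against 2.32, 4.25 and 2.64 CPM. The first value of each is the library that is identical to one of gfp female 5. The log2 fold changes were 0.51 ± 0.14 (adjusted p = 0.738) and 0.27 ± 0.25 (adjusted p = 0.781), and without Pt-msx1 female 1 they were 0.54 and 0.33. The test called 0% of 12446 models, with 775 at an unadjusted p under 0.05, 16 called by the likelihood ratio test and 4 by DESeq2. Without Pt-msx1 female 1 the same test called 5 of 12143 models, neither peptidase model among them. In the gfp females, aug3.g14027 had 10.4 and 21.7 CPM after injection, against 11.03 and 12.1 CPM untreated, and aug3.g12690 had 2.21 and 2.57 CPM, against 1.97 and 1.54 CPM. Only gfp female 5, whose injected library is the copied one, was higher for aug3.g14027. The log2 fold changes were 0.47 ± 0.18 and 0.50 ± 0.40 (adjusted p = 0.185 and 0.69), with 1.71% of 11960 models called. Without gfp female 5 a single pair is left, which allows no test. In that pair, gfp female 4, the log2 ratio of the levels was -0.08 for aug3.g14027 and 0.17 for aug3.g12690. The response labelled Pt-msx1 minus the gfp response was 0.04 ± 0.29 for aug3.g14027 and -0.25 ± 0.40 for aug3.g12690 (adjusted p = 1 for both). Without the females of both copies it was 0.54 and 0.09. This comparison called 0% of 12574 models, with 338 at an unadjusted p under 0.05, 5 called by the likelihood ratio test and 2 by DESeq2. Without Pt-msx1 female 1 it called 5 of 12488 and without the females of both copies 1 of 12356.

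**Figure D2:**
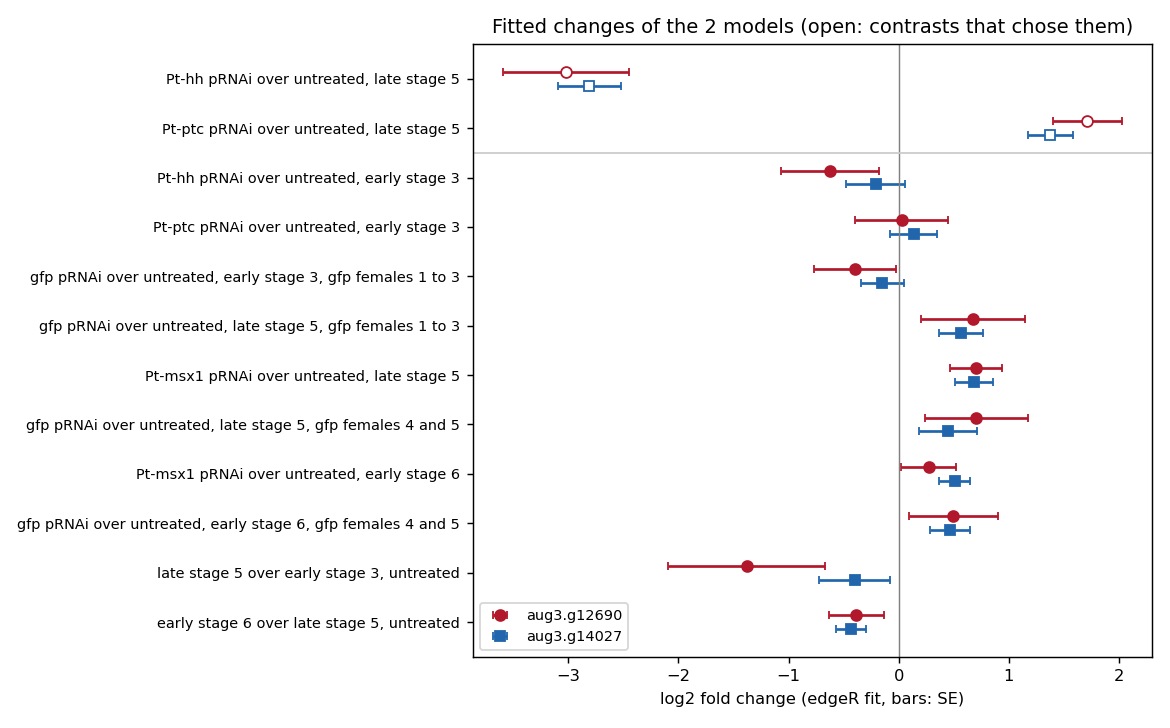
Fitted log2 fold changes of aug3.g12690 (circles) and aug3.g14027 (squares) with their SE in the 10 pRNAi comparisons and 2 stage comparisons. Open symbols are the contrasts that chose the models and carry no test; of the filled ones none passed an adjusted p of 0.01, and those for pRNAi over untreated all lie above 0 at the 2 later stages.

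Untreated embryos show how the 2 genes run through normal development. In gfp females 1 to 3, aug3.g14027 had 4.79, 7.3 and 3.81 CPM at late stage 5, against 8.42, 12.4 and 3.77 CPM at early stage 3. The model aug3.g12690 had 0.862, 0.481 and 0.224 CPM, against 2.16, 2.53 and 0.236 CPM. It was lower at the later stage in females 1 and 2, while female 3 had 2 counts at each stage. The log2 fold changes were -0.40 ± 0.32 for aug3.g14027 (adjusted p = 0.295) and -1.38 ± 0.71 for aug3.g12690 (adjusted p = 0.118) in edgeR's test, in a comparison that called 49.2% of 13837 models. The other females differed. In the 2 Pt-hh and 3 Pt-ptc females, untreated aug3.g14027 was higher at late stage 5 in 5 of 5, by 1.56 to 5.87 times, while aug3.g12690 was higher in 3 and lower in 2 (ratios 0.684 to 2.21). With all 8 females in 1 fit its log2 fold change was 0.68 (adjusted p = 0.0671) and that of aug3.g12690 was -0.07 (adjusted p = 0.886). The untreated late stage 5 libraries of the Pt-hh and Pt-ptc females also served to choose the models.

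Between late stage 5 and early stage 6, both models had lower values in most untreated pairs. The model aug3.g14027 had 15.8, 20.97 and 15.5 CPM at early stage 6 in the Pt-msx1 females, against 26.1, 31.2 and 17.3 CPM at late stage 5, and 11.03 and 12.1 CPM in gfp females 4 and 5, against 14.3 and 13.1 CPM. It was lower in 5 of 5 females. The log2 fold change of -0.44 ± 0.14 did not pass edgeR's test (adjusted p = 0.0895). That of aug3.g12690 was -0.38 ± 0.25 (adjusted p = 0.437), with lower values in 4 of 5 females. The test called 2.25% of the models.

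**Figure D3:**
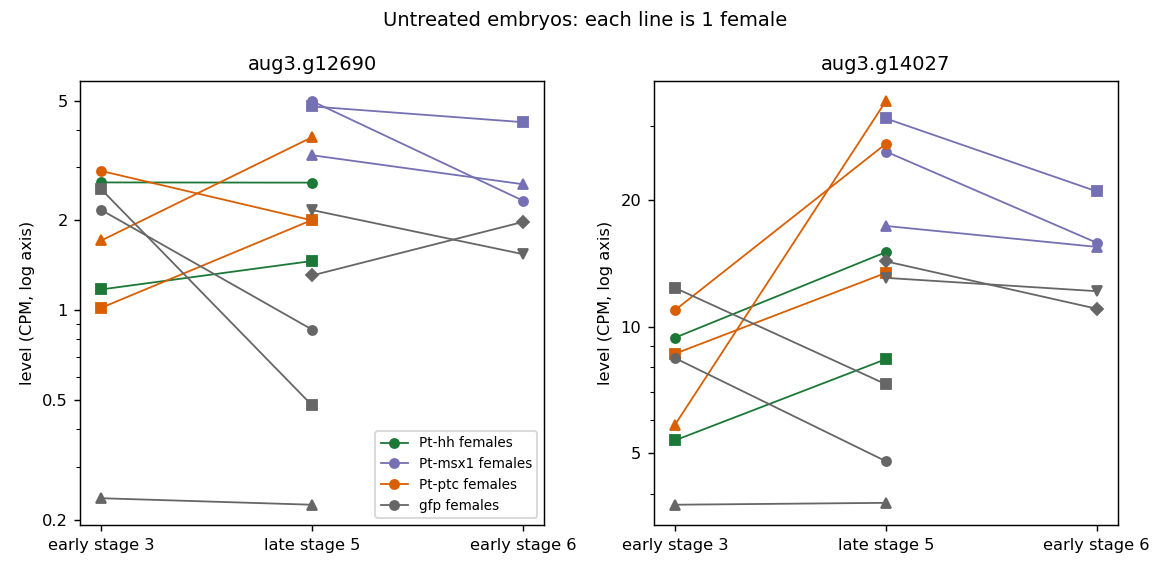
Levels of the models in untreated embryos, in CPM on a log axis, with 1 line per female and symbols as in the plot of all libraries. The lines of aug3.g14027 run up to late stage 5 in the Pt-hh and Pt-ptc females and down in 2 of the 3 gfp females, and all 5 run down to early stage 6.

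The untreated females differed widely among themselves. Over the 13 untreated late stage 5 libraries, aug3.g14027 ran from 3.81 to 34.3 CPM, a 9.01-fold range, and aug3.g12690 from 0.224 to 4.99 CPM, a 22.3-fold range. The Pt-msx1 females (24.9 ± 7.03 CPM, SD, n = 3) and the Pt-ptc females (25.0 ± 10.6 CPM, n = 3) had the highest untreated levels of aug3.g14027 at that stage, and gfp females 1 to 3 the lowest (4.79, 7.3 and 3.81 CPM). Ranked by their mean over libraries, the 18 groups ran from Pt-ptc pRNAi to Pt-hh pRNAi embryos, both at late stage 5. Both groups belong to the contrasts that chose the models, so their places at the ends follow in part from that choice. Egg sacs of 1 female are not independent, so the spread is given over female means: for aug3.g14027 these were 48.9, 36.5 and 103 CPM in the 3 Pt-ptc females and 1.47 and 1.65 CPM in the 2 Pt-hh females. For aug3.g12690 the same 2 groups stood at the ends, with female means of 4.91, 5.23 and 15.5 CPM and of 0.149 and 0.294 CPM. The libraries labelled Pt-msx1 pRNAi at late stage 5 came next to the top for both. Of the 17 neighbouring pairs in the order, the ranges of 16 overlapped for aug3.g14027 and of 17 for aug3.g12690. The exception was the lowest pair, Pt-hh pRNAi at late stage 5 below Pt-hh pRNAi at early stage 3 (3.5 to 11.9 CPM in 4 libraries of 2 females) for aug3.g14027. The lower group of that pair was used in the choice. No share over all models stands beside these overlap counts, so they are a description only. Without the identical libraries 15 of 17 and 17 of 17 overlapped, and gfp pRNAi at early stage 6 stood at place 10 in place of 7 for aug3.g14027.

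The 2 models followed each other from library to library. Over the 68 libraries, Pearson's r of log2(CPM + 1) between them was 0.922 (Spearman's rho 0.893), and each was the model most like the other among the 12188 models compared, those with a mean of at least 1 CPM. Both were picked for a common pattern, so the 15 late stage 5 libraries of the Pt-hh and Pt-ptc females raise this value by choice. In the other 53 libraries r was 0.888, and each was again first for the other. With 1 of the identical libraries left out, r was 0.923. These libraries share females, depth and stage, and r is a description. The counts of aug3.g14027 over those of aug3.g12690 had a median ratio of 6.04 in a library, from 2.43 to 17, and by group the ratio of summed counts ran from 3.77 in the untreated early stage 3 embryos of the Pt-hh females to 9.53 in the untreated late stage 5 embryos of the Pt-ptc females.

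**Figure D4:**
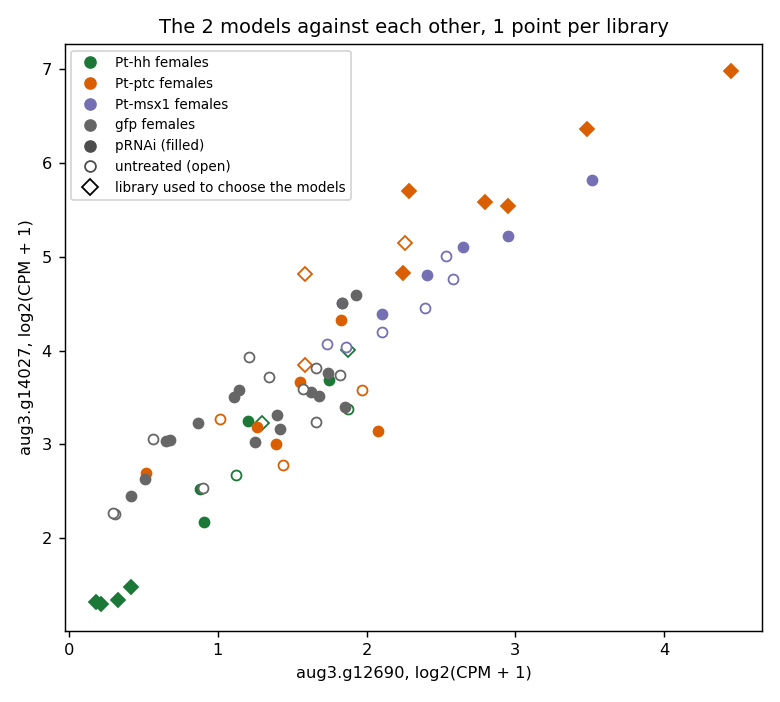
Levels of the models in the 68 libraries on the log2(CPM + 1) scale, 1 point per library, filled for pRNAi and open for untreated embryos. Diamonds are the 15 libraries of the contrasts that chose the models; the circles, which were not used, run along the same band.

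After each other, the models most like aug3.g14027 over all 68 libraries were aug3.g8250, described as homeobox protein B-H1, a transcription factor (r = 0.841), aug3.g338, uncharacterized (r = 0.808), aug3.g18290, SEC14-like protein 2, of a family of lipid-binding proteins (r = 0.78), and aug3.g9493, adhesion G protein-coupled receptor L1-like (r = 0.771). For aug3.g12690 they were aug3.g338 (r = 0.745), aug3.g7958, a non-muscle myosin-2 heavy chain model (r = 0.723), aug3.g10609, putative phosphoenolpyruvate synthase (r = 0.716), and aug3.g8250 (r = 0.715). The order below first place rested in part on the late stage 5 libraries of the Pt-hh and Pt-ptc females. Without them aug3.g8250 stood at place 39 for aug3.g14027 and at place 96 for aug3.g12690, while aug3.g18290 stood at place 2 for aug3.g14027 (r = 0.804) and aug3.g7958 at place 3 for aug3.g12690 (r = 0.728).

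The other members of the enzyme family are few. Of the 3 other models described as glutamyl aminopeptidase, only aug3.g20188 was well counted, with 38 to 217 counts in every library (4.36 to 16.5 CPM). At late stage 5 its log2 fold change was 0.05 ± 0.19 in the Pt-hh contrast and 0.23 ± 0.20 in the Pt-ptc contrast (edgeR's test, adjusted p = 0.937 and 0.636). The models aug3.g21919 and aug3.g7400 had at most 3 counts in 64 and 58 of the 68 libraries, and aug3.g21919 carries the same locus identifier as aug3.g20188 (LOC107448197). The list of M1 aminopeptidases held 7 models beside the 2 described here, of which 4 to 6 were tested in each comparison. None was called in the 10 pRNAi comparisons, where 0 to 3.55% of all models were, so at 4 to 6 models a count of 0 is near the background share. Their median log2 fold change at late stage 5 was -0.06 in the Pt-hh contrast and 0.16 in the Pt-ptc contrast, beside 0.004 and -0.001 over all models. At an unadjusted p under 0.05 there were 0 of 4 in both, and of the 13 other aminopeptidases, none of them called either, 1 and 4 of 11. Of all models 18.32 and 14.87% were under 0.05 in these 2 comparisons, and 3.55 and 1.01% were called.

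Of the M13 and M2 peptidases, the neprilysin, endothelin-converting and angiotensin-converting enzymes that also act on small peptides, 8 to 16 of 32 models were tested in the pRNAi comparisons. A single one was called in the pRNAi comparisons, aug3.g27386, an angiotensin-converting enzyme model, after Pt-hh pRNAi at late stage 5 (log2 fold change 1.86 ± 0.28, adjusted p = 0.00131 in edgeR's test). There it was 1 of 10 tested, beside 3.55% of all models called. At an unadjusted p under 0.05 in that test there were 4 of 10, beside 18.32% of all models. At late stage 5, aug3.g27386 had 35.6 and 47.9 CPM in the pRNAi embryos of female 2, against 12.1 CPM untreated, and 0 or 1 counts in every library of female 1 at that stage. The call therefore rests on 1 female, and it was lost without the female block (adjusted p = 0.863) and with each female's libraries summed (adjusted p = 0.0142).

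Between untreated stages more of the family changed. At late stage 5 over early stage 3, 1 of the 4 other M1 models tested was higher and 1 lower. The aminopeptidase N-like model aug3.g26324 fell by 3.56 ± 0.25 on the log2 scale (adjusted p = 3.54e-06), and the leukotriene A-4 hydrolase model aug3.g8021, named for a leukotriene-forming enzyme, rose by 1.25 ± 0.17 (adjusted p = 0.000213). Of the 12 other aminopeptidases tested, 4 were higher and 1 lower, and the smallest p belonged to the xaa-Pro aminopeptidase 1-like model aug3.g6569 (log2 fold change 4.88 ± 0.27, adjusted p = 9.87e-07). Of 14 M13 and M2 models, 3 were higher and 2 lower, and the smallest p belonged to the neprilysin-2-like model aug3.g17573 (log2 fold change -6.07 ± 0.36, adjusted p = 1.46e-06). With 49.2% of all models called between these stages, these shares say little about the family. From late stage 5 to early stage 6 none of the 3 lists had a model called, with 1 of 5, 3 of 11 and 2 of 11 at an unadjusted p under 0.05, beside 2.25% called and 19.91% under 0.05 over all models.

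Genes that mark regions of the germ disc were read beside the 2 models, since RNA of whole embryos does not show where a transcript lies. The study stained late stage 5 embryos for transcripts that changed in both contrasts, and the regions of the markers are as it names them. Staining for the 2 peptidase models was not used here. Among the markers, Pt-hh is the dsRNA target itself. The study knew the others as Hedgehog targets or found them changed in these same Pt-hh and Pt-ptc libraries. Their counts in these contrasts at late stage 5 thus follow in large part from that choice, beside 3.55% and 1.01% of all models called. After Pt-hh pRNAi at late stage 5, 4 of 4 peripheral markers were lower, with log2 fold changes of -6.03 for Pt-otd (aug3.g9172), which encodes a head homeodomain protein, -4.18 for Pt-opa (aug3.g12202), which encodes a zinc finger protein, -4.0 for Pt-hh and -1.8 for Pt-lab-A (aug3.g7954), a Hox gene. Pt-ptc fell by 2.5 on the log2 scale. Of the 2 central markers 1 was higher, Pt-msx1 at 1.07, and of the 3 intermediate ones 1 was lower. After Pt-ptc pRNAi, 2 of 4 peripheral markers were higher, Pt-lab-A at 1.21 and Pt-opa at 1.12, while 2 of 2 central and 3 of 3 intermediate markers were lower, from -5.95 for Pt-msx1 to -1.07. The 2 peptidase models had the directions of Pt-lab-A and Pt-opa, as their choice required. The part of these regions in the peptidase levels was not tested. In the libraries labelled Pt-msx1 pRNAi, edgeR's test called 0% of all models at both stages, so that 0 of 9 markers called is no result. The markers with the largest log2 fold changes at late stage 5 were the intermediate Pt-odd-skipped related-B (aug3.g21549) at 0.79 ± 0.18 and Pt-mirr4 (aug3.g8295) at 0.77 ± 0.15, and the central Pt-gas1 (aug3.g9575) at -0.65 ± 0.19. At early stage 6 these were 0.92 ± 0.12, 0.59 ± 0.22 and -0.76 ± 0.30. Without Pt-msx1 female 1, whose library is the copied one, they were 0.91 ± 0.13, 0.91 ± 0.11 and -1.24 ± 0.13, and Pt-gas1 alone of the 9 passed edgeR's test (adjusted p = 0.00465). The study had already listed Pt-gas1, Pt-mirr4 and Pt-odd-skipped related-B as changed in its early stage 6 Pt-msx1 data. Their values there are therefore no independent evidence.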

How the data were processed

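Reads were trimmed by the authors (CLC Genomics Workbench) and aligned with BLAT to Ptep_1.0; alignments were filtered with filterPSL.pl on coverage, identity and uniqueness, and counted by strand on aug3 models with htseq-count (HTSeq 0.5.4p5). They deposited whole-number counts per gene model without normalization for 27990 models; 2 rows without a model were left out, and 0 value columns were left unused. The authors also deposited RPKM values, used here only to compare levels per length and the identical libraries. Their tables of fold change and adjusted p-value were not used, apart from the names of best matches.

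Groups follow the labels, and females pair the libraries. Within a female, the deviations of its libraries from the treatment means correlated across models at 0.285 to 0.766. The lowest value came from the early stage 6 Pt-msx1 comparison, which holds the copied library. Tests used edgeR 4.0.16 in R 4.3.3: a filter keeping models that reach 1 CPM in 1 or more libraries, TMM scaling, the female as a block and the quasi-likelihood test, with p-values adjusted over all models (Benjamini-Hochberg, threshold 0.01). CPM printed per library use raw totals, and SE comes from the F statistic. Replicates are different females, and egg sacs of 1 female are repeats within it. In the pRNAi fits of the first experiment, each egg sac entered as a separate library within the female block. The SE and adjusted p printed for them thus rest in part on repeats within a female. The alternative with a female's libraries summed does not. The scripts were tested on simulated data. Alternatives were the likelihood ratio test, DESeq2 1.42.0, RLE, no filter, no block, summed libraries of a female, each female left out, other sets of females and Spearman's rho. Genes named are the 2 models, the knocked-down genes, relatives by description, up to 4 called models of each of 3 peptidase lists per comparison (here only the leading ones), the 5 most correlated models, scaffold neighbours and region markers. Leaving out the identical libraries, or the libraries used for the choice, was decided after seeing the data. The models and lists were chosen with earlier results of these data known.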

Additional observations from a re-analysis of the deposited data

Results flagged for a closer look

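In 7 groups of 4 to 8 libraries, examined for each of the 2 models, 1 of the 14 sets of values held a library far from the rest. Were the sets independent, chance would flag about 1 set in 20. They share libraries and females, so the 1 flag in 14 is a description only. The gfp pRNAi library of gfp female 5 at late stage 5 (day 20) had 23.1 CPM of aug3.g14027, while the other 7 gfp pRNAi libraries at that stage had 4.46 to 12.5 CPM. That group pools gfp females 1 to 3 (mean 8.18 CPM) with females 4 and 5 (mean 17.8 CPM, the flagged library included), from 2 experiments. The untreated library of gfp female 5 had 13.1 CPM. The early stage 6 library of the same egg sac day is the one whose counts equal those of a library labelled Pt-msx1 pRNAi.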

How the results depend on the processing

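Over the 32 changes tested or described for the 2 models, alternatives gave 20 values with the other sign, and none of 277 tested settings gave a call. In the contrasts that chose the models, 5 values moved by at least the SE. The other 259 were labelled the same. Outside those contrasts, that label means the same sign and no call, whatever the size of the shift. For example, aug3.g12690 after gfp pRNAi at late stage 5 had 0.68 ± 0.47 and ran from 0.04 to 1.33 with a female left out. With each female left out in turn, the log2 fold change after Pt-hh pRNAi at late stage 5 ran from -4.08 to -2.14 for aug3.g12690 and from -3.39 to -2.21 for aug3.g14027, and after Pt-ptc pRNAi from 1.43 to 1.85 and from 1.22 to 1.62. Signs turned in the following. With a female left out, Pt-ptc pRNAi at early stage 3 ran from -0.19 to 0.33 (aug3.g12690) and -0.0417 to 0.32 (aug3.g14027), gfp pRNAi at early stage 3 from -0.30 to 0.012 (aug3.g14027), and the Pt-hh minus gfp difference there from -0.31 to 0.0919 (aug3.g14027). The difference between the responses labelled Pt-msx1 and gfp ran from -0.31 to 0.26 (aug3.g12690) and -0.21 to 0.69 (aug3.g14027) at late stage 5, and from -0.51 to 0.0268 and -0.38 to 0.505 at early stage 6. For aug3.g12690 at late stage 5 it was 0.0066 with the likelihood ratio test and 0.0056 without a filter. At early stage 6, without the females of the identical libraries, a choice made after seeing the data, it was 0.0864 for aug3.g12690. With all 8 females, late stage 5 over early stage 3 was 0.68 for aug3.g14027.

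Without the female as a block, which ignores the pairing, aug3.g12690 had -0.0262 after Pt-ptc pRNAi at early stage 3 and 0.0644 for the late stage 5 difference between Pt-msx1 and gfp, and aug3.g14027 had -0.0121 for that difference at early stage 6. The count of all models called also depended on the setting: at late stage 5 it was 435 in the Pt-hh contrast and 123 in the Pt-ptc one, against 39 and 39 without the block, 121 and 62 with a female's libraries summed, 783 and 291 with the likelihood ratio test and 881 and 443 without a filter. Of the 5 models most like each, Spearman's rho shared 2 for aug3.g12690 and 3 for aug3.g14027, and the 53 libraries not used in the choice shared 2 for each. The sign of the relative aug3.g20188 turned with a female left out after Pt-hh pRNAi at late stage 5 (lowest -0.13), after Pt-ptc pRNAi at early stage 3 (-0.3589 to 0.0353), in the libraries labelled Pt-msx1 at early stage 6 (-0.2044 to 0.2688) and in their late stage 5 difference to gfp (-0.4903 to 0.4086), and with all 5 gfp females at late stage 5 (0.0798). Depth limits aug3.g12690 above all: it had 1 to 3 counts in each Pt-hh pRNAi library at late stage 5.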
